A study of Homo sapiens with 17 samples.

Results

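The genes described here are 3 co-chaperone genes of the BAG family, BAG1, BAG2 and BAG3, and HSPB1, which encodes the small heat shock protein HSP27. They were chosen by name, and all 4 were found among the 14085 genes of the first table and the 13616 genes of the second. Tags from the 3′ ends of messenger RNA were counted in 17 libraries of PC3M cells, a long-established human prostate cancer line. The libraries bear on what HSF1, a stress transcription factor, and JMJD6, an oxygenase, contribute to the response of these genes to protein-damaging stress.

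In the first table, all cells of 3 groups received the proteasome inhibitor MG132 at 2.5 µM for 4 hours. They were HSF1 knockout (KO) cells, cells with an siRNA against JMJD6 (siJMJD6) and cells with a non-targeting siRNA (siNT), set beside siNT cells given DMSO, with 2 libraries each. The second table held siJMJD6 cells and siNT cells after heat shock, which was 1 hour at 42 °C followed by 2 hours of recovery, and unstressed siNT cells (basal), with 3 libraries each. Transfection with siRNA lasted 72 hours. The KO cells carry no siRNA in their labels, and no source used here says whether libraries A and B come from separate clones. Wherever KO cells are compared with siNT or siJMJD6 cells, loss of HSF1, transfection and any clonal difference therefore cannot be told apart. Cells with siJMJD6 or KO but no stress were not analysed here, and therefore an effect of either under stress and a difference already present before stress cannot be told apart.

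Proteins of the BAG family share a BAG domain, which binds the ATPase domain of HSP70 chaperones and makes them release nucleotide and client. BAG1 links HSP70 to the proteasome through a ubiquitin-like domain. BAG2 blocks the ubiquitin ligase CHIP, the product of STUB1, which marks HSP70 clients for destruction. BAG3 binds HSP70 and small heat shock proteins together and passes damaged proteins to autophagy. HSPB1 holds unfolded proteins in solution without using ATP, and it can hand them to HSP70 with the help of BAG3. HSF1 is the transcription factor that switches on heat shock genes, by binding repeats of the bases GAA in alternating orientation.

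The promoter windows of 3 of these genes are printed because the difference between KO and siNT cells under MG132 varied among the members. Each window, taken from RefSeq on build GRCh38.p14, runs from 250 bases before to 50 bases after the annotated start, 5′ to 3′ on the strand of the gene, and all 4 genes had one. A pair of inverted GAA units was searched for as GAANNTTC and as TTCNNGAA, both of which read the same on either strand, and the fixed bases of a match are in capitals. HSPB1 lies on the plus strand at chr7:76302423-76302722, BAG2 on the plus strand at chr6:57172076-57172375 and BAG3 on the plus strand at chr10:119651130-119651429.
HSPB1: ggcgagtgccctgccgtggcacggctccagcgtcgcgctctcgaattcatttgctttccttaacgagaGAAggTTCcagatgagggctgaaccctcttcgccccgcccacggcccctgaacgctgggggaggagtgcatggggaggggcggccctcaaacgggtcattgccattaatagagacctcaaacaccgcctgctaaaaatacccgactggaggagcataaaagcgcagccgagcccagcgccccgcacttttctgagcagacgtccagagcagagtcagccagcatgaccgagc
BAG2: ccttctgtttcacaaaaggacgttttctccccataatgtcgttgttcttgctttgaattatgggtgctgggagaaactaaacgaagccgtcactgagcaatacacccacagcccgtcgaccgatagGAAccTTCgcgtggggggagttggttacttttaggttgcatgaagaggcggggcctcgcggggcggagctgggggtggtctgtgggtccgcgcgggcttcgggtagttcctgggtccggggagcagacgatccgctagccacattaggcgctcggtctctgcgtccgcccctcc
BAG3: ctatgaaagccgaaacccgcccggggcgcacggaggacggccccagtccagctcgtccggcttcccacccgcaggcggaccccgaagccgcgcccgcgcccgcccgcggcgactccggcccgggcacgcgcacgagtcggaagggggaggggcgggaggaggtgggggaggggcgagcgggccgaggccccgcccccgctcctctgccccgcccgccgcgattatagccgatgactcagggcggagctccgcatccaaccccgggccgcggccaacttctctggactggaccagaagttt
The HSPB1 window held 1 match to GAANNTTC, whose first base lies 182 bases before the start. The BAG2 window also held 1, 124 bases before the start. The windows of BAG3 and BAG1 held 0 matches to either motif. The last bases of the BAG3 window match GAANNTTC up to its final C, and the base beyond the edge was not read. Of 35116 promoter windows, 6.77% held GAANNTTC, 7.74% held TTCNNGAA and 13.5% held either. The motifs can share a GAA or TTC unit, which did not occur in these windows. A match is only a run of letters, and the absence of one says nothing of sites outside the window.

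The genes themselves lie, on GRCh38 in GENCODE 29, at chromosome 9, 33247820 to 33264720 on the minus strand (BAG1), chromosome 6, 57172326 to 57189833 on the plus strand (BAG2), chromosome 10, 119651370 to 119677819 on the plus strand (BAG3) and chromosome 7, 76302544 to 76304295 on the plus strand (HSPB1). The 3′ end of BAG2, where the tags arise, lies within the opposite-strand gene RAB23, which ranged over 6.45 to 35.99 normalised counts with MG132 or DMSO and 15.5 to 50.2 in the heat shock libraries. The 3′ end of BAG1 lies within the opposite-strand gene SPINK4, which was absent from both tables. No source used here gives the strand setting of the counting, so reads of these partners cannot be told apart. HSPB1 has the processed pseudogenes HSPB1P1 and HSPB1P2, which were absent from both tables. The level of HSPB1 is uncertain to the extent that their reads were split.

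Levels are the authors' normalised counts per gene. Column totals were similar, between 1505826 and 1819640, so they give no depth. The value of 1 read differed from gene to gene, and the share of low values within 0.1 of a whole multiple of the commonest step ran from 17.8% to 100% over the libraries. Whole reads were therefore not recovered and the depth stays unknown. Across genes, r between replicate libraries ran from 0.92 to 0.953 for the MG132 table and from 0.967 to 0.977 for the heat shock table, on log2 values. Effects are log2 fold changes of the normalised count plus 1, tested gene by gene with limma over 9778 (MG132) and 9831 (heat shock) genes. The words rose and fell are kept for a Benjamini-Hochberg adjusted p under 0.05, and such a gene is termed called. JMJD6 and HSF1 followed the labels: JMJD6 had 26.6 and 16.6 normalised counts in siJMJD6 cells and 167 and 129.8 in siNT cells under MG132. After heat shock it had 7.66 to 14.6 in siJMJD6 cells and 209 to 253 in siNT cells. HSF1 had 285 in KO library A and 175 in KO library B, and 1687 and 1884 in the siNT libraries with MG132. The HSF1 tags lie at the 3′ end, so they do not check the deletion. All 5 epithelial markers were tested, with KRT18 at 725 to 1401 in the MG132 table. Of the blood cell markers CD68 alone was tested, at 19.8 to 51.5 in the MG132 table and 24.7 to 44.1 after heat shock or at baseline. Whether replicates came from separate cultures is not stated, so each p-value reflects only how much these libraries varied, which may be technical. In such bulk samples, fewer cells of a type and less RNA per cell cannot be told apart.

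BAG3 was the member that moved most in both stresses. Under the proteasome inhibitor, BAG3 had 1629.9 and 763 normalised counts in siNT MG132 libraries 1 and 2, against 133 and 249 in siNT DMSO libraries. Both MG132 libraries stood above both DMSO libraries, although the MG132 pair itself differed widely. The mean was 1196 ± 613 under MG132 and 191 ± 81.9 in DMSO (SD, n = 2 each), and BAG3 rose by 2.61 ± 0.43 on the log2 scale (limma, adjusted p = 0.0169), a 6.10-fold difference and the 21st largest of 9778. BAG3 was the only one of the 4 members called, against 0.266% of all genes (0.205% higher). The call was lost without DMSO library 1 (2.16, adjusted p = 0.238), without siNT MG132 library 1 (2.06, adjusted p = 0.313), without KO library A (adjusted p = 0.0582) or B (adjusted p = 0.0577), and without the filter on low values (adjusted p = 0.48).

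The other members were higher under MG132 in both libraries but did not pass the test. HSPB1 had 1746 and 1757 normalised counts in siNT MG132 libraries and 824 and 1063 in DMSO libraries. Its log2 fold change was 0.90 ± 0.25, with an unadjusted p of 0.00276 and an adjusted p of 0.343 (limma). BAG1 had 92.7 and 102 normalised counts with MG132 and 53.3 and 59.0 with DMSO, an effect of 0.78 ± 0.28 (limma, adjusted p = 0.669). BAG2 had 38.1 and 48.3 with MG132 and 30.6 and 32.4 with DMSO, an effect of 0.43 ± 0.35 (limma, adjusted p = 0.956). Non-overlapping groups with the MG132 libraries higher were found for all 4 members, and for 18.3% of all genes.

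**Figure D1:**
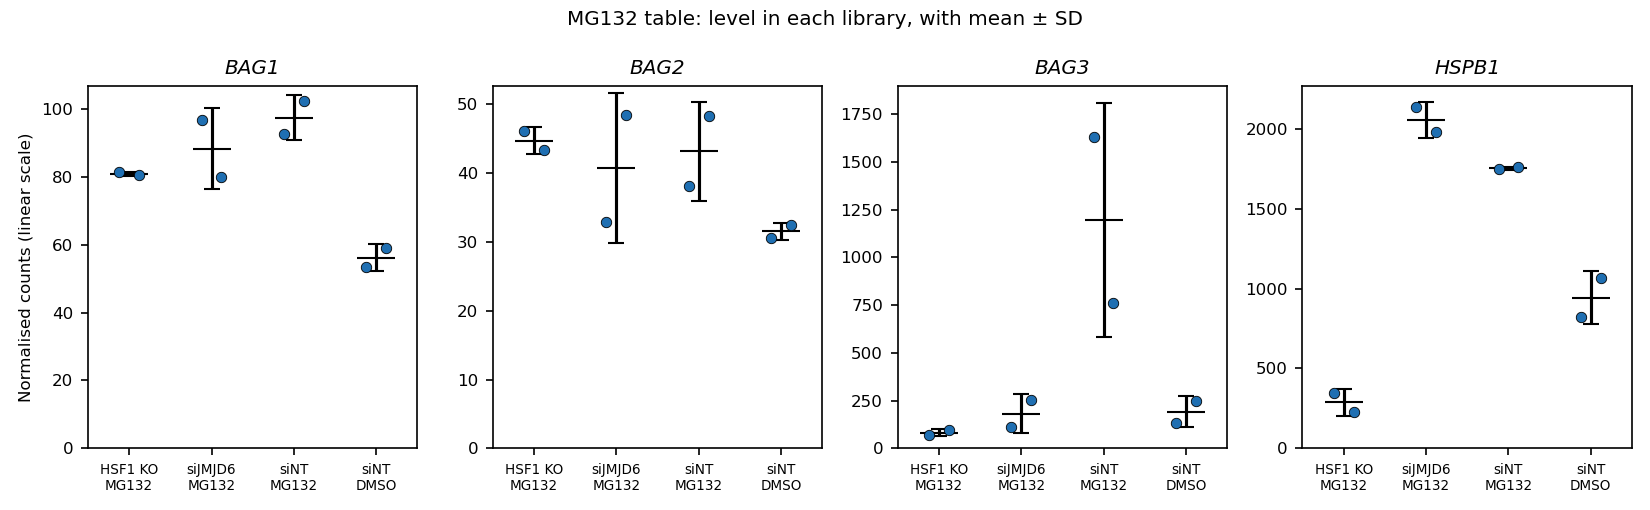
Normalised counts (linear axes from 0) of BAG1, BAG2, BAG3 and HSPB1 in the 8 libraries of the MG132 table. Points are libraries, and bars give the mean ± SD of 2 libraries. BAG3 is high in siNT MG132 cells alone, whereas HSPB1 is lowest in the KO libraries (347 and 228) and stays high in siJMJD6 libraries (2136 and 1977).

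Knockout of HSF1 was compared with siNT under MG132 to ask which genes differ between stressed KO and siNT cells. BAG3 had 68.5 normalised counts in KO library A and 93.9 in KO library B, against 1629.9 and 763 in siNT MG132 libraries. The groups did not overlap, and BAG3 fell by 3.78 ± 0.43 on the log2 scale (limma, adjusted p = 0.000409), 13.7-fold lower. HSPB1 had 347 and 228 in KO libraries, against 1746 and 1757 in siNT libraries. It fell by 2.64 ± 0.25 (limma, adjusted p = 7.46e-05), 6.21-fold lower. BAG3 and HSPB1 were thus 2 called members of 4, against 1.28% of all genes called (1% lower), and 21.7% of all genes had non-overlapping groups in that direction. Neither call was lost when any 1 of the 8 libraries was left out (BAG3 −4.33 to −3.23, HSPB1 −2.94 to −2.33), but without the filter on low values BAG3 had adjusted p = 0.071.

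Neither BAG1 nor BAG2 passed the test in KO cells. BAG1 had 81.3 and 80.5 normalised counts in KO libraries, against 92.7 and 102 in siNT MG132 libraries. Both KO libraries were lower. The effect was −0.26 ± 0.28 (limma, adjusted p = 0.767), and the 95% interval of the difference ran from −0.87 to 0.34. BAG2 had 46.1 and 43.3 in KO libraries, against 38.1 and 48.3 in siNT MG132 libraries. The effect was 0.06 ± 0.35 (limma, adjusted p = 0.968), with an interval from −0.70 to 0.81 that allows a change in either direction.

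Against the unstressed cells, MG132-treated KO cells had less HSPB1. HSPB1 had 347 and 228 normalised counts in KO cells under MG132, against 824 and 1063 in siNT cells in DMSO. It fell by 1.73 ± 0.25 (limma, adjusted p = 0.00325), where 0.931% of all genes were called (0.562% lower). The call was lost without DMSO library 2 (−1.55, adjusted p = 0.0634), without KO library B (−1.43, adjusted p = 0.0777) and without the filter on low values (adjusted p = 0.0882). BAG3 had 68.5 and 93.9 in the KO cells, against 133 and 249 in DMSO. Both KO libraries were lower, as for 24.2% of all genes, but the effect of −1.17 ± 0.43 was not called (limma, adjusted p = 0.267). BAG1 (0.52 ± 0.28) and BAG2 (0.49 ± 0.35) were not called either, with both KO libraries above both DMSO libraries in each case, as for 24.3% of all genes.

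Knockdown of JMJD6 was compared with the same siNT MG132 libraries, which the MG132 effect uses too. Without the highest of them for BAG3, siNT MG132 library 1, the BAG3 effect was −3.23 in KO cells (limma, adjusted p = 0.012) and −2.18 in siJMJD6 cells (limma, adjusted p = 0.033). BAG3 had 111 and 253 normalised counts in siJMJD6 libraries 1 and 2, against 1629.9 and 763 in siNT MG132 libraries. The groups did not overlap, as for 28.1% of all genes in that direction, and BAG3 fell by 2.73 ± 0.43 (limma, adjusted p = 0.00181), 6.63-fold lower. HSPB1 had 2136 and 1977 in siJMJD6 libraries, against 1746 and 1757 in siNT libraries. Both siJMJD6 libraries were the higher ones, as for 24.9% of all genes, but the effect of 0.23 ± 0.25 was not called (limma, adjusted p = 0.589), with a 95% interval from −0.30 to 0.76. Over all 8 libraries left out in turn, the BAG3 effect ran from −3.32 to −2.14 and was called each time. BAG3 was the 1 called member of 4, against 13.6% of all genes (7.35% lower).

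For BAG1 and BAG2 the siJMJD6 and siNT groups overlapped under MG132. BAG1 had 96.7 and 79.9 normalised counts in siJMJD6 libraries, against 92.7 and 102 in siNT libraries (−0.14 ± 0.28, limma adjusted p = 0.773, 95% interval −0.75 to 0.46). BAG2 had 33.0 and 48.4 in siJMJD6 libraries, against 38.1 and 48.3 in siNT libraries (−0.10 ± 0.35, limma adjusted p = 0.878, interval −0.85 to 0.65).

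Relative to unstressed siNT cells, siJMJD6 cells under MG132 differed in HSPB1 but not detectably in BAG3. BAG3 had 111 and 253 normalised counts in siJMJD6 cells under MG132, against 133 and 249 in DMSO libraries. The groups overlapped (−0.12 ± 0.43, limma adjusted p = 0.884), and the interval from −1.05 to 0.81 leaves room for a change of either sign. HSPB1 had 2136 and 1977, against 824 and 1063 in DMSO libraries. It rose by 1.13 ± 0.25 (limma, adjusted p = 0.0104), 2.19-fold, where 13.4% of all genes were called (6.2% higher). This call was lost without DMSO library 1 (0.95, adjusted p = 0.107). BAG1 (0.64 ± 0.28, adjusted p = 0.146) and BAG2 (0.33 ± 0.35, adjusted p = 0.563) were not called by limma, with both siJMJD6 libraries above both DMSO libraries, as for 26.8% of all genes.

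KO and siJMJD6 cells under MG132 were then compared directly. HSPB1 had 347 and 228 normalised counts in KO libraries, against 2136 and 1977 in siJMJD6 libraries, so the groups lay far apart. It was lower in KO cells by a log2 fold change of −2.87 ± 0.25 (limma, adjusted p = 2.38e-05), 7.29-fold. BAG3 had 68.5 and 93.9 in KO libraries, against 111 and 253 in siJMJD6 libraries. Both KO libraries were lower, as for 28.7% of all genes, but the effect of −1.05 ± 0.43 was not called (limma, adjusted p = 0.0997). Without siJMJD6 library 1 it was −1.64 and called (adjusted p = 0.0244). HSPB1 was the 1 called member of 4, against 20.8% of all genes (9.69% lower). For BAG1 (−0.12 ± 0.28) and BAG2 (0.16 ± 0.35) the KO and siJMJD6 groups overlapped.

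In the order of group means in the MG132 table, BAG3 was highest in siNT MG132 cells (1196 ± 613), followed by DMSO (191 ± 81.9), siJMJD6 (182 ± 100.5) and KO cells (81.2 ± 17.98, SD, n = 2 each). The last 3 groups were not separated by a call. HSPB1 was highest in siJMJD6 cells (2056 ± 113), followed by siNT MG132 cells (1752 ± 8.19), DMSO (943.5 ± 169) and KO cells (287 ± 83.9, SD, n = 2 each). Of its neighbours in that order, siJMJD6 and siNT MG132 cells were not separated by a call, nor were siNT MG132 and DMSO cells, while KO and DMSO cells were. BAG1 had means of 80.9 to 97.4 in the 3 groups with MG132 and its lowest mean, 56.2, in DMSO. BAG2 likewise had means of 40.7 to 44.7 with MG132 and 31.5 in DMSO, and none of these groups was separated by a call.

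Heat shock was the second stress, compared with basal siNT cells. BAG3 had 965, 1078 and 1216 normalised counts after heat shock, against 267, 278 and 247 at baseline. Each heat shock library stood well above each basal library, with means of 1086 ± 126 and 264 ± 15.4 (SD, n = 3 each). BAG3 rose by 2.03 ± 0.094 (limma, adjusted p = 2.19e-18), 4.09-fold and the 11th largest of 9831 effects. HSPB1 had 1889.5, 1952 and 2093 after heat shock, against 1341, 1233 and 1527 at baseline. Those groups did not overlap either, as for 10.5% of all genes in that direction, and HSPB1 rose by 0.54 ± 0.077 (limma, adjusted p = 7.19e-06), 1.45-fold. These were 2 called members of 4, against 4.09% of all genes (2.86% higher). Both calls held in each of 9 fits without 1 library, with BAG3 at 1.95 to 2.12 and HSPB1 at 0.47 to 0.62.

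BAG1 was lower after heat shock in every library, without a call. BAG1 had 68.6, 53.1 and 64.1 normalised counts after heat shock, against 78.0, 75.4 and 78.9 at baseline. The effect was −0.33 ± 0.16 (limma, adjusted p = 0.34), and 9.21% of all genes had non-overlapping groups in that direction. BAG2 had 61.8, 65.4 and 77.2 after heat shock, against 66.0, 59.9 and 59.7 at baseline. Those groups overlapped, and the effect was 0.13 ± 0.17 (limma, adjusted p = 0.787, 95% interval −0.21 to 0.47).

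**Figure D2:**
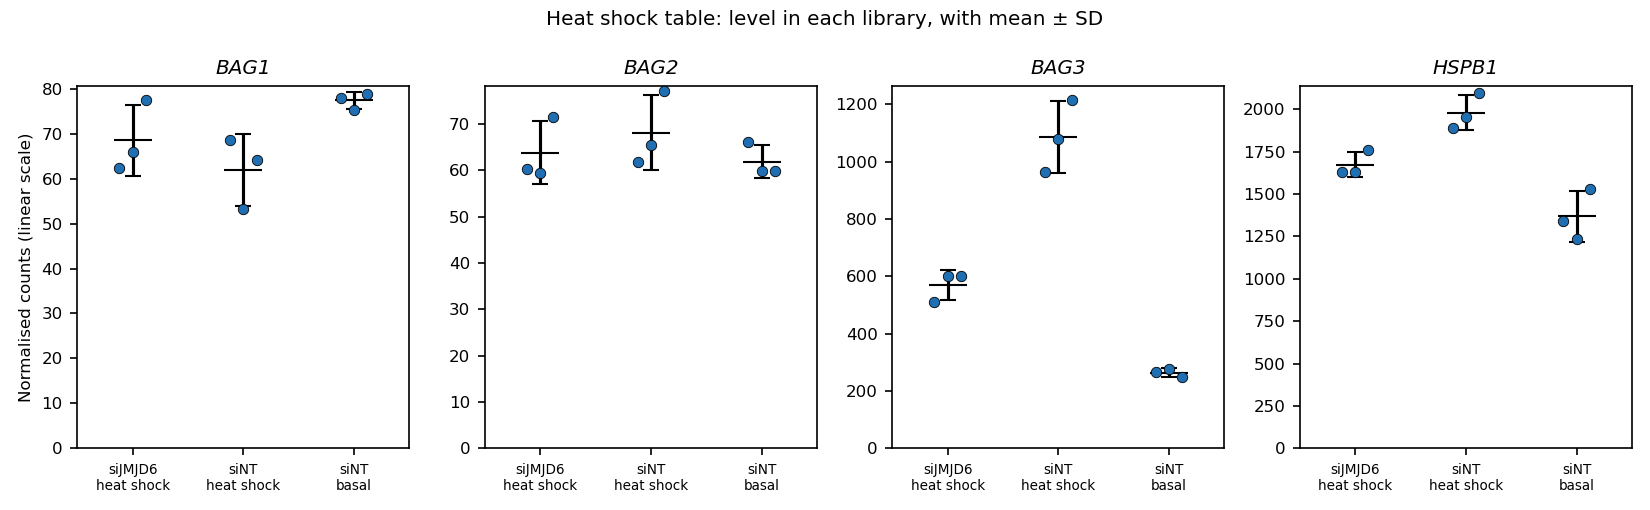
Normalised counts (linear axes from 0) of the 4 genes in the 9 libraries of the heat shock table. Points are libraries, and bars give the mean ± SD of 3 libraries. BAG3 in siJMJD6 cells after heat shock (509 to 600.2) lies between siNT cells after heat shock (965 to 1216) and siNT basal cells (247 to 278), and HSPB1 takes the same order.

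With siJMJD6, both stress-responsive members were lower after heat shock. BAG3 had 509, 600.2 and 599.9 normalised counts in siJMJD6 cells after heat shock, against 965, 1078 and 1216 in siNT cells after heat shock. The groups did not overlap, and BAG3 fell by 0.93 ± 0.094 (limma, adjusted p = 4e-10), 1.90-fold lower. HSPB1 had 1627, 1632 and 1760.5 in siJMJD6 cells, against 1889.5, 1952 and 2093 in siNT cells. It fell by 0.24 ± 0.077 (limma, adjusted p = 0.00993), 1.18-fold lower. Under quantile normalisation, which forces the same distribution on every library, HSPB1 changed by −0.17 and the call was lost (adjusted p = 0.0815). Because 46.4% of all genes were called here (24.9% lower) and 28.8% had non-overlapping groups in that direction, 2 called members of 4 is near the share over all genes.

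The level of BAG3 in siJMJD6 cells after heat shock still exceeded baseline. BAG3 had 509, 600.2 and 599.9 in siJMJD6 cells after heat shock, against 267, 278 and 247 in basal siNT cells. It rose by 1.11 ± 0.094 (limma, adjusted p = 6.55e-12), 2.15-fold. HSPB1 had 1627, 1632 and 1760.5 normalised counts, against 1341, 1233 and 1527 at baseline, and rose by 0.30 ± 0.077 (limma, adjusted p = 0.00185). For this comparison 46.3% of all genes were called (22.2% higher) and 26.1% had non-overlapping groups in that direction, so the calls of 2 members do not stand out in number.

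For BAG1 and BAG2 the siJMJD6 libraries after heat shock overlapped both siNT groups. BAG1 had 62.4, 65.9 and 77.4 normalised counts in siJMJD6 cells after heat shock. The effect was 0.15 ± 0.16 against siNT cells after heat shock (limma, adjusted p = 0.483) and −0.18 ± 0.16 against basal cells (limma, adjusted p = 0.387). BAG2 had 60.2, 59.5 and 71.6 in those cells, with effects of −0.09 ± 0.17 against siNT cells after heat shock (limma, adjusted p = 0.675) and 0.04 ± 0.17 against basal cells (limma, adjusted p = 0.87). The 95% intervals of these 4 effects lay within −0.51 and 0.48. BAG1 averaged 68.6 ± 7.88 in siJMJD6 cells after heat shock, 61.95 ± 7.95 in siNT cells after heat shock and 77.45 ± 1.85 at baseline (SD, n = 3 each). BAG2 averaged 63.8 ± 6.76, 68.15 ± 8.04 and 61.9 ± 3.56 in the same groups, and no call separated any of them for either gene.

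**Figure D3:**
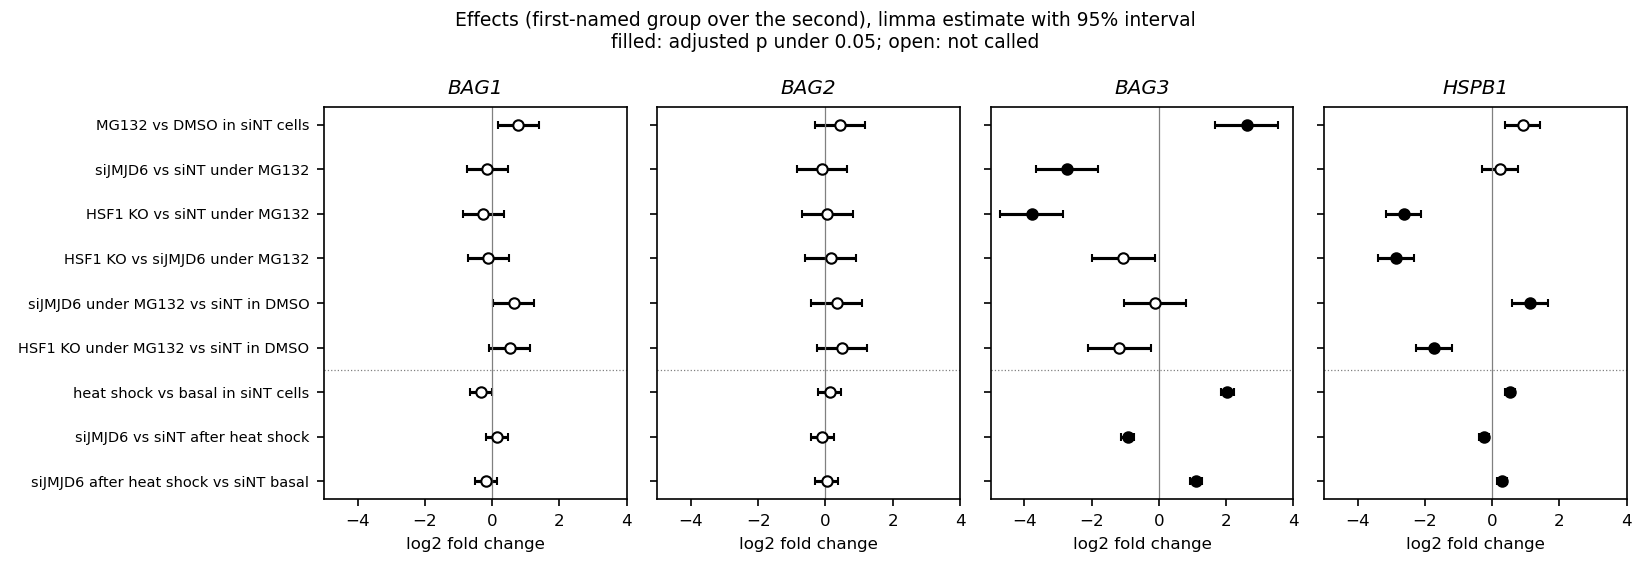
Log2 fold changes of the 4 genes in the 9 comparisons, with limma's 95% interval; the dotted line separates the 2 tables, and filled points passed adjusted p under 0.05. BAG3 and HSPB1 part in the rows that involve siJMJD6 under MG132 (−2.73 and 0.23 against siNT), while every BAG1 and BAG2 point is open.

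The 2 tables were probably normalised separately, so effects of siJMJD6 under MG132 and after heat shock are given side by side. They were not tested against each other. For BAG3 these effects were −2.73 ± 0.43 and −0.93 ± 0.094, and for HSPB1 0.23 ± 0.25 and −0.24 ± 0.077. For BAG1 they were −0.14 ± 0.28 and 0.15 ± 0.16, and for BAG2 −0.10 ± 0.35 and −0.09 ± 0.17. Over all genes the median standard error was 0.394 for the MG132 libraries and 0.195 for the heat shock libraries, so the first table resolves only larger effects.

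HSP70 genes encode the chaperones on which BAG proteins act. HSP110 genes, which encode exchange factors, were listed with them, and both kinds are termed partners here for short. Their counts are set beside the share of all genes called, which was 1.28% for KO and 13.6% for siJMJD6 against siNT under MG132, 46.4% for siJMJD6 after heat shock, 0.266% for MG132 and 4.09% for heat shock. Under MG132, 4 of 9 tested partners fell in KO cells and 0 rose, with a list median of −1.12 beside 0.01 over all genes. The inducible HSP70 genes HSPA1B and HSPA1A had effects of −5.12 ± 0.30 and −5.60 ± 0.38, and HSPH1, which encodes an HSP110 exchange factor, had −4.46 ± 0.33. With siJMJD6 3 of 9 fell and 0 rose (median −0.33, beside −0.05 over all genes), namely HSPA1B (−2.38 ± 0.30), HSPA1A (−2.47 ± 0.38) and the constitutive HSPA8 (−1.65 ± 0.34). After heat shock, siJMJD6 cells had 4 of 8 partners lower and 2 higher than siNT cells (median −0.16, beside −0.03), with 24.9% of all genes called lower. HSPA1B fell by 0.68 ± 0.083 and HSPH1 by 0.38 ± 0.075, while HSPA1A rose by 0.21 ± 0.084 (limma, adjusted p = 0.0419). HSPA1A and HSPA1B are near-identical copies whose reads the counting may have split, so their separate values are uncertain. In siNT cells 2 of 9 partners rose with MG132 (median 0.69), and 5 of 8 rose with heat shock (median 0.82).

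Further members of both families were tested where their levels allowed. BAG4, which restrains TNF receptor signalling, BAG5, and BAG6, which guards membrane proteins in the cytosol, were tested in both tables. In the MG132 table none of the 3 was called in KO against siNT, siJMJD6 against siNT or MG132 against DMSO (limma, 0 of 3 in each). At an unadjusted p under 0.05 the count was 1 in KO cells, which was BAG4 (−1.31 ± 0.47), and 0 in the others. The share of all genes at that threshold was not computed, so this count is a description only. After heat shock BAG4 fell by 0.87 ± 0.27 and BAG6 by 0.38 ± 0.15 in siJMJD6 cells relative to siNT cells. In that comparison 46.4% of all genes were called (24.9% lower). Of 10 further small heat shock protein genes, 2 passed the filter on low values in the MG132 table and 3 did in the other. HSPB8, which binds BAG3, had 182, 258 and 276 normalised counts after heat shock, against 105, 88.0 and 112 at baseline, and rose by 1.21 ± 0.14 (limma, adjusted p = 1.86e-07). CRYAB, encoding αB-crystallin, had 22.3, 23.7 and 19.7 after heat shock, against 5.95, 4.38 and 9.13 at baseline, and rose by 1.66 ± 0.36 (limma, adjusted p = 0.0035). Its baseline values lay below the filter of 10, so CRYAB was tested only through the heat shock libraries in which it was high. This rise is therefore a description only. Neither HSPB8 nor CRYAB was called with siJMJD6 after heat shock. HSPB8 was lower in KO than in siJMJD6 cells under MG132, with 7.13 and 3.13 normalised counts against 17.0 and 32.7 (−2.09 ± 0.69, limma adjusted p = 0.047). Both KO values lay below the filter of 10, so this difference too is a description only.

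**Figure D4:**
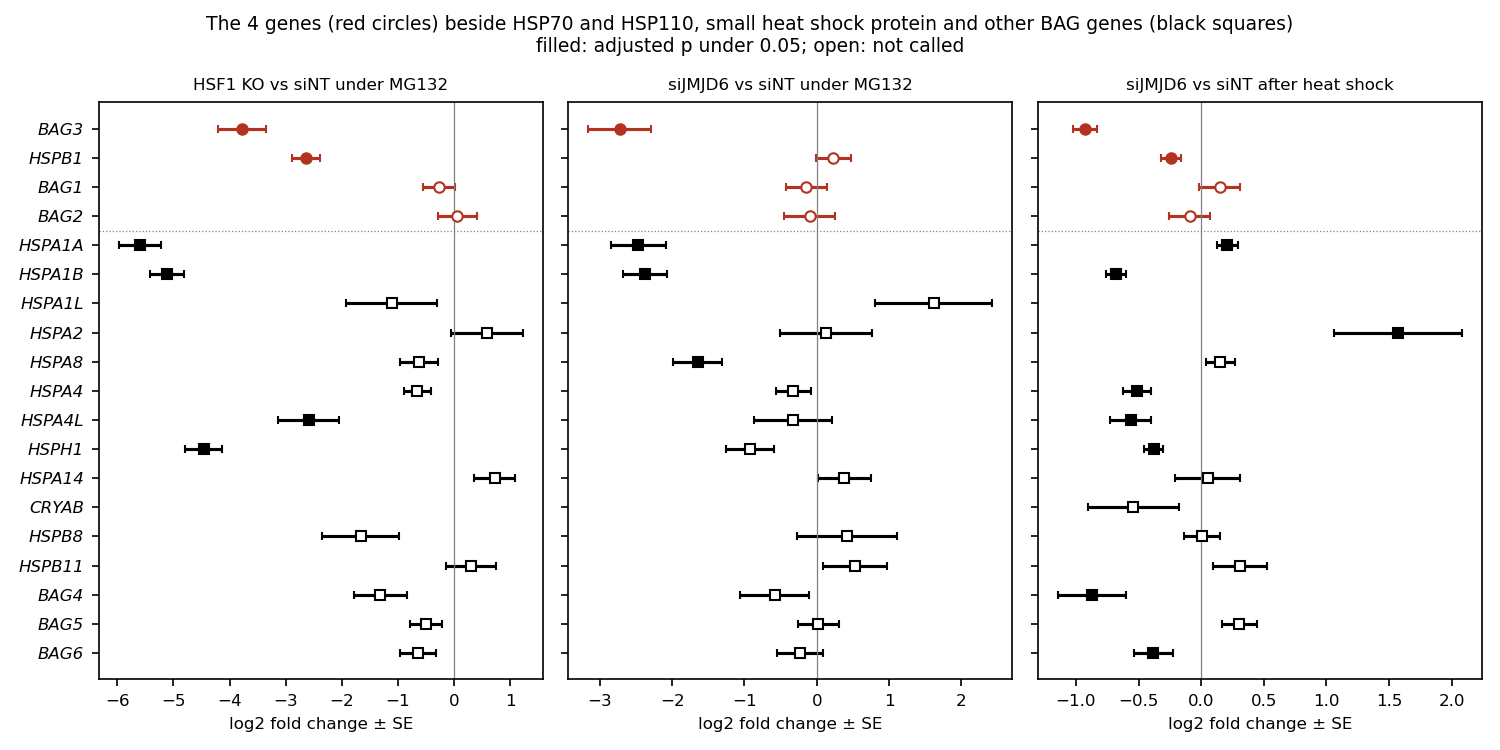
Log2 fold changes ± SE of the 4 genes (red circles) and of the tested HSP70 and HSP110, small heat shock protein and other BAG genes (black squares) in 3 comparisons; filled symbols passed adjusted p under 0.05, and the axes differ in range. In KO cells BAG3 (−3.78) and HSPB1 (−2.64) stand on the same side as HSPA1A, HSPA1B and HSPH1, and with siJMJD6 under MG132 BAG3 (−2.73) does so while HSPB1 (0.23) does not.

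Further cofactors of HSP70 included the HSP40 genes, which deliver clients. Of 10 tested under MG132, 4 fell in KO cells, where 1.28% of all genes were called (1% lower). Among them were DNAJB1 (−2.73 ± 0.25), the HSP70-interacting ST13 (−1.35 ± 0.23) and DNAJB2 (−1.71 ± 0.31). With siJMJD6 2 fell, DNAJB1 (−2.18 ± 0.25) and DNAJB6 (limma, adjusted p = 0.00857), where 13.6% of all genes were called (7.35% lower). After heat shock 6 of 11 rose in siNT cells, where 4.09% of all genes were called (2.86% higher). With siJMJD6 6 of 11 were lower than with siNT after heat shock, where 46.4% of all genes were called (24.9% lower). The smallest adjusted p among them belonged to STIP1, which joins HSP70 to HSP90 (−0.92 ± 0.085), and the larger falls to DNAJB4 (−1.63 ± 0.30) and DNAJB5 (−1.61 ± 0.46). DNAJB5 had 2.22 to 8.82 normalised counts with siJMJD6, all below the filter of 10, against 8.70 to 20.9 with siNT after heat shock. Those groups overlapped, and DNAJB5 was tested only through siNT libraries, so its fall is a description only. STUB1, whose product BAG2 inhibits, had −0.10 ± 0.29 in KO cells and 0.62 ± 0.29 with siJMJD6 under MG132, neither of them called.

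Counts for partners outside the chaperones are set against the 13.6% (MG132) and 46.4% (heat shock) of all genes called with siJMJD6. No share of all genes was computed at an unadjusted p under 0.05, so counts at that threshold are descriptions only. Among 17 tested partners of BAG3 and genes of chaperone-assisted autophagy, 0 were called in KO against siNT and in MG132 against DMSO (limma). At an unadjusted p under 0.05 the count was 3 in KO cells, with the smallest p for WWTR1 (0.97 ± 0.31), and 1 with MG132, which was SQSTM1, encoding the autophagy receptor p62 (0.93 ± 0.23). With siJMJD6 under MG132, 3 rose and 2 fell, among them FLNA, encoding the BAG3 client filamin A (1.25 ± 0.29), the vesicle gene VPS18 (1.75 ± 0.29) and the deacetylase gene HDAC6 (−1.63 ± 0.37). After heat shock 7 rose and 6 fell with siJMJD6, with FLNA again higher (1.12 ± 0.078). Among 12 tested partners of BAG1 and BAG2, 2 fell with siJMJD6 under MG132, the phosphatase regulator gene PPP1R15A (−1.65 ± 0.28) and the receptor gene MET (−1.39 ± 0.27). MET fell with siJMJD6 after heat shock too (−1.29 ± 0.098), when 1 of 12 rose and 2 fell. The gene that rose was PPP1R15A (0.60 ± 0.15), opposite to its fall with siJMJD6 under MG132. Of 13 kinases and regulators of HSPB1, 0 were called in KO against siNT (limma, and 1 at an unadjusted p under 0.05, MAPKAPK3 with −0.62 ± 0.28), while 1 fell with siJMJD6 under MG132. This was MAPKAPK3, which encodes a kinase that phosphorylates HSPB1 (−1.09 ± 0.28), and it fell after heat shock as well (−0.97 ± 0.13), when 2 of 13 rose and 3 fell.

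Among 9 tested heat shock transcription factors and regulators, 3 fell in KO cells, where 1.28% of all genes were called. They were HSF1 itself (−2.99 ± 0.27), IER5 (−1.19 ± 0.25) and IER5L (−1.98 ± 0.26), of which IER5 acts on HSF1. HSF1 is the gene knocked out and served as the check of the labels, so its fall is no separate result. With siJMJD6 under MG132, 1 rose and 2 fell, where 13.6% of all genes were called. IER5L rose (0.92 ± 0.26), opposite to its fall in KO cells. HSBP1, whose product binds HSF1 (−1.60 ± 0.23), and HSF2 (−0.87 ± 0.25) fell. HSBP1 fell by 2.15 ± 0.096 with siJMJD6 after heat shock, when 5 of 9 rose and 2 fell, beside 46.4% of all genes called. IER5L rose there as well (2.04 ± 0.15). HSF1 had 2968 and 2216 normalised counts in siJMJD6 libraries under MG132 and 1687 and 1884 in siNT MG132 libraries, an effect that was not called (0.52 ± 0.27, limma adjusted p = 0.218). It was called higher in siJMJD6 cells under MG132 than in DMSO (0.92 ± 0.27, limma adjusted p = 0.0374), and in siJMJD6 cells after heat shock than in siNT cells after heat shock (0.25 ± 0.073, limma adjusted p = 0.00573) or at baseline (0.25 ± 0.073, limma adjusted p = 0.00444).

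Genes with the pattern most like each member were found from Pearson's r over the 8 libraries of the MG132 table and the 9 of the heat shock table, taking the lower r of the pair, among 4386 genes with a mean of at least 50 in both (4387 for BAG2). The libraries of a table share their groups and normalisation, so r is a description only. For BAG3 the 4 nearest were HSPA1B (r = 0.935 and 0.981), DNAJA1 (0.917 and 0.957), SMAD1 (0.911 and 0.9) and DNAJB1 (0.893 and 0.987). For HSPB1 they were HSPH1 (0.95 and 0.911), C7orf60 (0.887 and 0.908), ANXA1 (0.863 and 0.874) and DNAJB2 (0.98 and 0.838). The nearest to BAG1 were ZNF346, TUBGCP3, SLC25A32 and COLGALT1, with r between 0.636 and 0.748, and to BAG2 EMC8, ZNF622, RPS29 and MARK3, with r between 0.592 and 0.791. The nearest patterns of BAG3 and HSPB1 thus included chaperone and HSP40 genes, and those of BAG1 and BAG2 lay at lower r.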

How the data were processed

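RNA of 17 PC3M libraries was prepared with QuantSeq FWD, which reads transcript 3′ ends, per the labels' protocols. Per the submitters' processing notes, FastQC 0.11.2, STAR 2.6.0 and HTSeq were used with build hg38, with annotation, strand setting and scaling not given in the sources used here. For each gene and library the authors deposited a normalised count signal, in 2 tables that were probably scaled separately. No test crossed the tables, and every column had its label.

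Values were taken as log2 with pseudocount 1, and limma 3.58.1 (R 4.3.3) was run with a variance trend and 1 spread per gene over all groups of a table. Genes needed 10 normalised counts in 2 libraries (MG132) or 3 (heat shock). There were 9 comparisons, with Benjamini-Hochberg adjustment over all genes of each, and the fit was tested on simulated data. The 8 gene lists were written from general knowledge. From each list up to 3 called genes with the smallest adjusted p are named, or the 2 smallest p. For each member the 4 genes of most similar pattern are named. DNAJB4, DNAJB5, STUB1, RAB23 and SPINK4 were added after values were seen. Members and lists were chosen with earlier results of these data known. Alternatives were another pseudocount, no filter, TMM factors, quantile normalisation, fits of 2 groups compared, a replicate block and leaving out each library.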

Additional observations from a re-analysis of the deposited data

Results flagged for a closer look

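The effect of siJMJD6 on HSPB1 took opposite directions in the 2 stresses, with every library of each group on its side. HSPB1 had 2136 and 1977 normalised counts in siJMJD6 cells and 1746 and 1757 in siNT cells under MG132, a log2 fold change of 0.23 that was not called. After heat shock it had 1627 to 1760.5 in siJMJD6 cells and 1889.5 to 2093 in siNT cells, a called log2 fold change of −0.24. Non-overlapping groups in those directions were found for 24.9% and 28.8% of all genes. The difference between the stresses was not tested, because the tables were probably normalised separately. Under quantile normalisation the effects were 0.072 and −0.17.

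BAG1 passed the test in neither stress in siNT cells, while its libraries lay on opposite sides of their unstressed ones. Its log2 fold change was 0.78 with MG132 against DMSO and −0.33 with heat shock against basal, with no overlap between the groups in either table, as for 18.3% and 9.21% of all genes in those directions. This difference was not tested either.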

How the results depend on the processing

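Of 504 recomputed effects of the 4 members, 484 kept their direction and their side of the threshold. Without the filter on low values, the number of called members was 0 for MG132 against DMSO, 1 for KO against siNT and 0 for KO against DMSO, each 1 fewer than reported. Under quantile normalisation it was 1 for siJMJD6 against siNT after heat shock. Leaving out 1 library gave 0 to 1 called members for MG132 against DMSO, for siJMJD6 under MG132 against DMSO and for KO against DMSO, and 1 to 2 for KO against siJMJD6; the other 5 comparisons kept their number. The fits without a library in neither group compared were added after seeing the data. Fewer libraries also weaken the fit, and beyond that the cause was not tested.

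Reversed signs were found only among uncalled effects when 1 library was left out. BAG3 in siJMJD6 cells under MG132 against DMSO was 0.33 without DMSO library 2 and ran from −0.71 to 0.47 over all libraries left out, the highest without siJMJD6 library 1. BAG2 against siNT under MG132 was −0.11 in KO cells without siNT library 1 (highest 0.23), and 0.067 and 0.17 in siJMJD6 cells without siNT library 2 or siJMJD6 library 1 (lowest −0.37). Without siJMJD6 library 1, KO against siJMJD6 was 0.017 for BAG1 (lowest −0.26) and −0.11 for BAG2 (highest 0.43). BAG2 in siJMJD6 cells after heat shock against basal was −0.046 without siJMJD6 library 3 (highest 0.085).

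Counts over all genes moved more. Without the filter, called genes were 6 in place of 26 (MG132 against DMSO), 675 in place of 1327 (siJMJD6 against siNT under MG132), 29 in place of 125 (KO against siNT), 739 in place of 1308 (siJMJD6 against DMSO) and 6 in place of 91 (KO against DMSO). Fits of only the 2 groups compared gave 687, 213, 743 and 224 for the last 4. The lowest counts without 1 library were 10, 351, 43, 434 and 31 (highest 141) in that order, and 654 in place of 2033 for KO against siJMJD6.

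With a replicate block no call of a member changed, and 41 genes in place of 26 were called for MG132 against DMSO. The main fits did not take the numbers as pairs. Deviations of same-numbered libraries correlated at 0.045 to 0.368 in the MG132 table, over 0.1 in 4 of 6 pairs, so pairing is possible there. With 2 libraries per group, each of those values occurs for both numbers. In the heat shock table they correlated at −0.035 to 0.094, over 0.1 in 0 of 9 pairs, and 5 of 9 libraries correlated best with their own number. No paired fit was possible for KO cells, whose libraries carry no number. The depth per library is unknown, so no counting interval can be given.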
